A study of Mus musculus with 8 samples.

Results

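Oxidative phosphorylation is carried out in the inner mitochondrial membrane by complexes I to V. The members here are the nuclear genes whose symbols mark them as subunits of these complexes (Nduf, Sdh, Uqcr, Cox and Atp5) and that held at least 100 counts over the 8 libraries. Of 24421 genes in the table, 84 matched the symbols and 77 reached the minimum: 35 for complex I, 4 for complex II, 8 for complex III, 13 for complex IV and 17 for complex V.

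The study sequenced mRNA of follicular regulatory T (TFR) cells, Foxp3-expressing T cells that restrain germinal centres, from mouse spleen. There were 4 WT libraries and 4 libraries labelled Blimp1-flox Foxp3-cre, called Blimp1-flox here, in which Cre acts in cells that express Foxp3. Both groups had been given peanut with cholera toxin by mouth 2 times, and 36 days later splenic CD4+ T cells were enriched and sorted as Foxp3+ YFP+ CXCR5+ PD1+. Whether WT mice carried Foxp3-cre, how many alleles were floxed, the age of the mice, and whether libraries of a group came from separate animals are not given in the sources used here. The p-values reflect only how much these libraries vary, which may be technical.

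Complex I takes electrons from NADH and complex II from succinate, and both pass them to ubiquinone. Complex III moves them to cytochrome c, complex IV to oxygen, and complex V uses the resulting proton gradient to make ATP. Complex II is built from nuclear genes alone, whereas the others also hold subunits of the mitochondrial genome, which were not analysed here. Regulatory T cells are known for their reliance on mitochondrial respiration.

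The libraries held 16425538 to 27595939 counts, with Blimp1-flox 1 the shallowest. The label was checked on Prdm1, the gene of Blimp1, which held 31.8 to 71.0 CPM (read counts relative to library size after TMM scaling) in WT and 7.53 to 16.6 CPM in Blimp1-flox. All Blimp1-flox libraries lay below all WT libraries. Its log2 fold change was -2.14 ± 0.31 (SE; edgeR adjusted p = 0.0203). Without Blimp1-flox 1 its edgeR adjusted p was 0.103. No TFR marker of 12 was at 0 in all libraries, and their summed level was 7342 to 8633 CPM in WT, 7179 to 8389 CPM in Blimp1-flox. Among them, the IL-2 receptor gene Il2ra fell, with 81.3 to 120.7 CPM in WT, against 28.1 to 55.4 CPM in Blimp1-flox (0.381 of the WT level, edgeR adjusted p = 0.0311). Foxp3 was at 72.5 to 105 CPM in WT, against 55.7 to 75.5 CPM in Blimp1-flox (edgeR adjusted p = 0.176). Other TFR markers went either way and none of them passed. Pdcd1 (1.23-fold), Bcl6 (1.16-fold), Cxcr5 (1.12-fold) and Icos (1.08-fold) were higher in Blimp1-flox. Cd3e, Cd3g, Ctla4, Ikzf2 and Tnfrsf18 were lower, and Cd4 was level. Markers of other cells were also present. The sum of 15 B cell markers was 261 to 957 CPM in WT, highest in WT 4, and 217 to 293 CPM in Blimp1-flox. None of the 15 was at 0 in all libraries, and 10 of them were lower in every Blimp1-flox than in every WT library.

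Promoters of respiratory subunit genes are known for sites of NRF1, of the ETS family factor GABP and of YY1, 3 kinds of factor that tie these genes to mitochondrial biogenesis. A RefSeq promoter (GRCm38.p6, the assembly that mm10 names, 250 bases before to 50 after the start of transcription) was found for 66 of the 77 members. Exact matches on either strand were counted in these windows and, as a background, in 27025 promoters of the same length. The ETS motif CCGGAAG was in 15 of 66 member promoters (22.7%, against 9.12% of all promoters). The YY1 motif AAGATGG was in 11 (16.7%, against 6.48%). The NRF1 motif TGCGCATG was in 8 (12.1%, against 2.23%). A longer NRF1 palindrome, spelled by the capitals of Atp5g2 and able to overlap the shorter motif, was in 5 (7.58%, against 0.977%). The E-box CACGTG was in 7 (10.6%, against 7.24%) and the Blimp1 core motif GAAAGTG in 5 (7.58%, against 4.77%). A match is a description of the letters and does not show binding.

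The 100 bases before the start of 8 members are shown to let the motifs be seen in their setting, 5′ to 3′ on the gene's strand, with the match in capitals. The first 4 hold the ETS motif, in Sdhd and Atp5h on the opposite strand. The next 3 hold an NRF1 motif, in Ndufa6 on the opposite strand. Ndufa7 holds the Blimp1 core motif on the opposite strand.
Uqcr11 (chr10:80406822-80406921, minus strand): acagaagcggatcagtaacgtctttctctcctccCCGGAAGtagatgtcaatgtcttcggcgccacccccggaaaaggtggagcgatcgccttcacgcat
Ndufb7 (chr8:83566658-83566757, plus strand): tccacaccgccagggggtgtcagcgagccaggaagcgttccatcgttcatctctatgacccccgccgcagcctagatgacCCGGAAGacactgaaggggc
Sdhd (chr9:50603850-50603949, minus strand): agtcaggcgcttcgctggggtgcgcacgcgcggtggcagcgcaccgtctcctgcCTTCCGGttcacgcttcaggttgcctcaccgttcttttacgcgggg
Atp5h (chr11:115419920-115420019, minus strand): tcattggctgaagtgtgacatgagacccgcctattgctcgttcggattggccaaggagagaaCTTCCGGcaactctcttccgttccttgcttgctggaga
Cox5b (chr1:36691387-36691486, plus strand): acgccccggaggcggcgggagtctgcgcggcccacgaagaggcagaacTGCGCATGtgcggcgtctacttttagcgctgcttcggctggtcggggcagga
Ndufa6 (chr15:82354292-82354391, minus strand): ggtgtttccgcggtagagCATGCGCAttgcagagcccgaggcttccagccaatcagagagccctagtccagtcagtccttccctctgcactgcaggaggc
Atp5g2 (chr15:102671048-102671147, minus strand): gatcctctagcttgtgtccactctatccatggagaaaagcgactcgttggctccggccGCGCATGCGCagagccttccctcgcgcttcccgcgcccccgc
Ndufa7 (chr17:33824472-33824571, plus strand): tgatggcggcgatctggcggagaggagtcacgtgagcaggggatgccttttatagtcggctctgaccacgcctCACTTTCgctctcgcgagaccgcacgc

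The match began 66 bases before the start in Uqcr11, 20 in Ndufb7, 46 in Sdhd and 38 in Atp5h. It began 52 bases before the start in Cox5b, 82 in Ndufa6, 42 in Atp5g2 and 27 in Ndufa7. The median log2 fold change (Blimp1-flox relative to WT) was 0.19 for members with the ETS motif and 0.21 for those without. It was 0.22 with and 0.19 without TGCGCATG, and 0.19 both with and without the longer NRF1 palindrome. For the YY1 motif it was 0.245 with and 0.19 without, for the E-box 0.27 and 0.19, and for the Blimp1 core motif 0.19 and 0.19. These differences were not tested.

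Transcripts of the subunits lay slightly higher in Blimp1-flox than in WT cells as a group, and no single gene passed the test over all genes. All 77 members were tested among 12363 genes. None was called at an adjusted p under 0.05 in either direction by edgeR, where 0.259% of all tested genes were called higher and 0.243% lower. The adjusted p of members ran from 0.162 to 0.976. DESeq2 called no member, where it called 1.62% of all genes it tested higher and 2.19% lower. Limma-voom with quality weights called 2 higher, Ndufa12 (adjusted p = 0.0329) and Ndufa9 (adjusted p = 0.0433), where it called 1.72% of all genes higher and 2.27% lower. At an unadjusted edgeR p under 0.05, 29 members were higher and 2 lower, where 7.11% of all tested genes were higher and 9.05% lower.

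The log2 fold change was positive for 73 of 77 members and negative for 4, while 50.1% of all tested genes were positive. The median was 0.21, a 1.15-fold difference, against 0.00119 over all tested genes, and members ran from -0.52 to 0.50. The median standard error of a single member was 0.12. In bulk RNA, fewer cells of a type and less RNA per cell cannot be told apart. All 4 Blimp1-flox libraries lay above all 4 WT libraries for 4 members, against 3.75% of all tested genes, and below them for 1, against 4.72%.

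**Figure D1:**
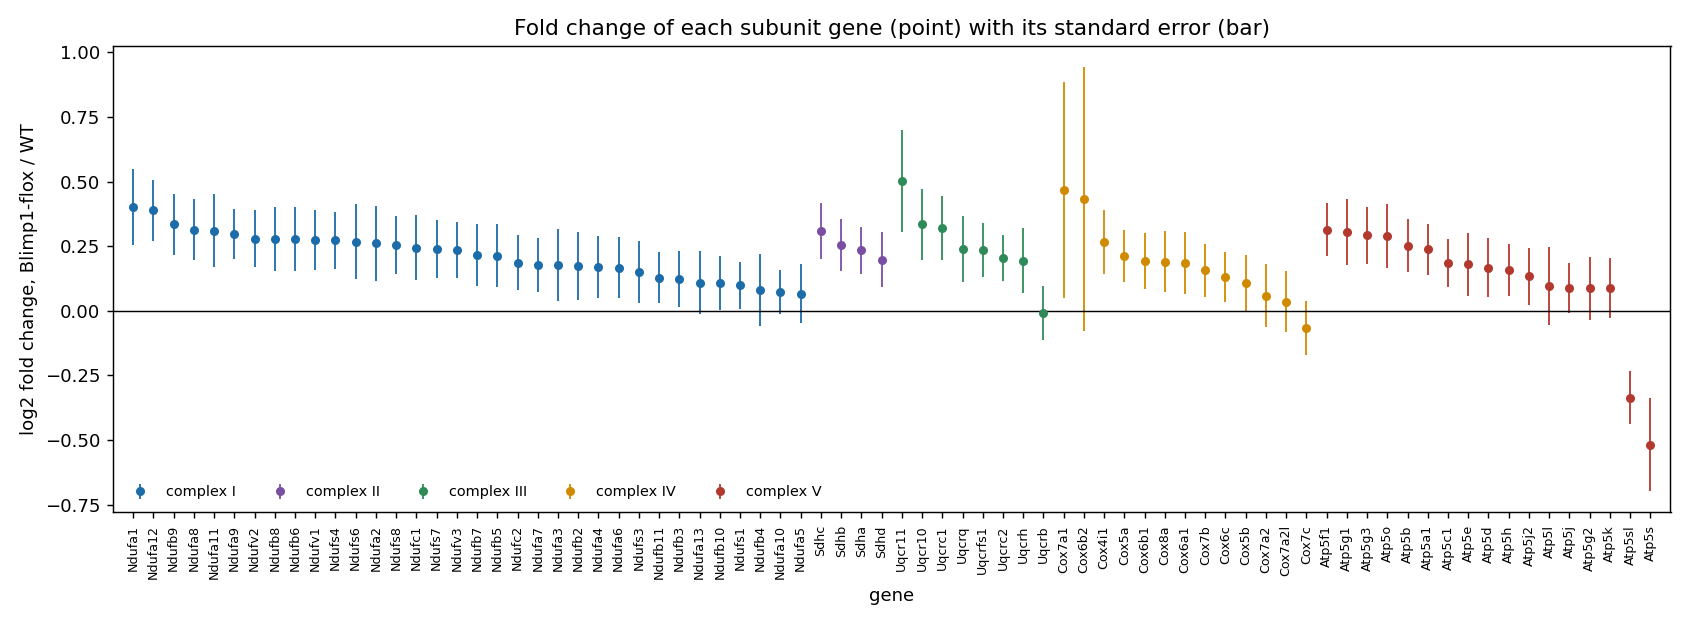
Log2 fold change of each of 76 subunit genes (points, y axis) with its standard error (bars), ordered within complexes I to V along the x axis. Most points sit between 0 and 0.4, and Atp5s and Atp5sl at the right end are the lowest, at -0.52 and -0.34.

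The pattern by library was uneven. Blimp1-flox 1 was the highest of the 8 libraries for 65 of 77 members, and WT 2 the lowest for 58. The median deviation of the members from their own means on the log2 scale was 0.0585 in WT 1, -0.261 in WT 2, -0.0734 in WT 3 and -0.105 in WT 4. It was 0.286 in Blimp1-flox 1, -0.0783 in Blimp1-flox 2, 0.028 in Blimp1-flox 3 and 0.15 in Blimp1-flox 4. WT 1 stood above Blimp1-flox 2 and 3, and WT 3 stood close to Blimp1-flox 2. Without Blimp1-flox 1 the members' median log2 fold change was 0.12, with 71 positive, and 39 members had a value more than 1.5 times smaller. The complex medians were then 0.125 for complex I, 0.192 for complex II, 0.188 for complex III, 0.111 for complex IV and 0.103 for complex V, from 0.234, 0.244, 0.237, 0.186 and 0.167 with all libraries. Without WT 2, 24 members had a value more than 1.5 times smaller, and the median of complex IV was 0.106. Without both Blimp1-flox 1 and WT 2, a choice made after seeing the data, the median of all 77 members was 0.0657, with 63 positive and 14 negative.

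**Figure D2:**
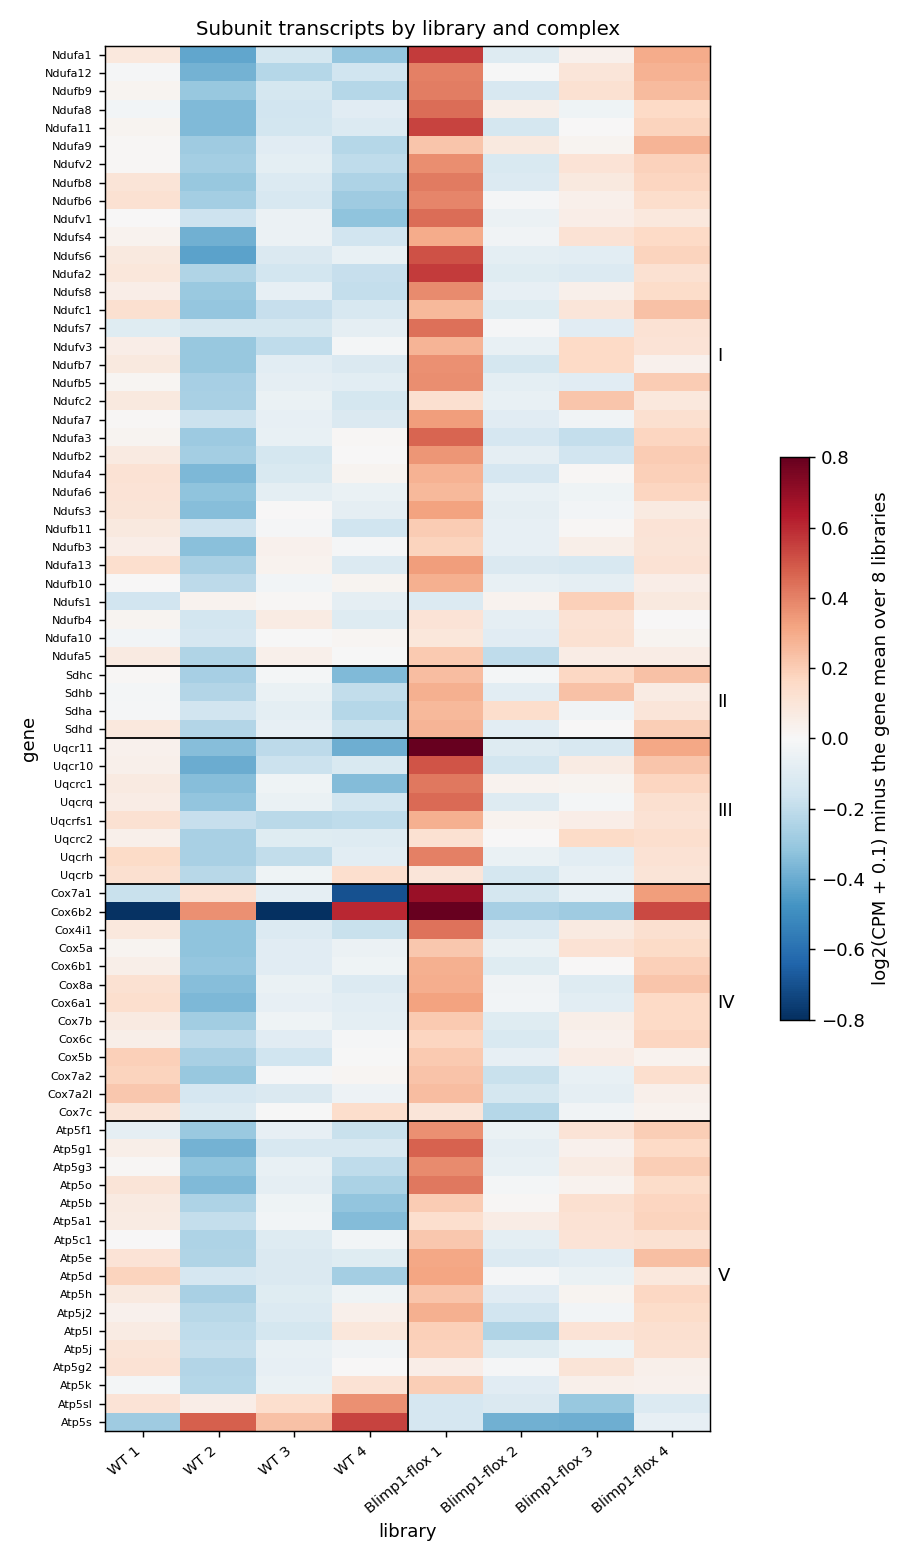
Deviation of each of 76 subunit genes (rows, grouped by complexes I to V) from its mean over 8 libraries (columns, 4 WT and 4 Blimp1-flox) in log2(CPM + 0.1), red for higher and blue for lower. The column of Blimp1-flox 1 is red for nearly the whole set and that of WT 2 is blue, while the rows of Atp5sl and Atp5s at the bottom run the other way.

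Other measures stood apart in the same libraries. The summed level of 6 plasma cell markers was 22.2 to 31.3 CPM in WT, against 79.0, 49.3, 13.2 and 95.9 CPM in Blimp1-flox 1 to 4. Most of this sum was Jchain alone, at 13.6 to 26.2 CPM in WT, against 62.6, 37.2, 7.19 and 81.4 CPM in Blimp1-flox 1 to 4. That of 12 myeloid markers was 33.5 to 51.6 CPM in WT, against 114.9, 48.9, 27.3 and 102.8 CPM in Blimp1-flox 1 to 4. Blimp1-flox 1 and 4, with the highest subunit levels, also had the highest values of both sums, and no gene of either list was at 0 in all libraries. The exact two-sided permutation p was 0.143 for the plasma cell and 0.257 for the myeloid sum (adjusted p = 0.229 and 0.294 over 8 measures). Of single markers, the plasma cell gene Sdc1 rose 3.66-fold (edgeR adjusted p = 0.0334), with 0.922 to 2.22 CPM in WT, against 3.20 to 6.93 CPM in Blimp1-flox. The myeloid gene Cd68 was at 11.1 to 16.7 CPM in WT, against 17.5 to 27.5 CPM in Blimp1-flox, without overlap (edgeR adjusted p = 0.117). Sdc1 and Cd68 were each the only marker of their list that was higher in every Blimp1-flox than in every WT library. Of the other plasma cell markers, Mzb1 was lower (log2 fold change -0.35, edgeR adjusted p = 0.803). Jchain, Derl3 and Fkbp11 were higher but did not pass, and Tnfrsf17 was too low to be tested. In Blimp1-flox 3, Cd68 was at 22.1 CPM and the myeloid gene Lyz2 at 0. The part of the plasma cell and myeloid markers in the result was not tested. The sum of 5 CD8 and NK cell markers was 26.1 to 43.4 CPM in WT and 47.9 to 50.4 CPM in Blimp1-flox, without overlap and with Klra8 at 0 throughout (exact permutation p = 0.0286, adjusted p = 0.228). That p is the smallest that 4 against 4 libraries can give, so with 8 measures a single separated sum could not pass after adjustment. Klrb1c was the only gene of this list without overlap, with 13.5 to 26.6 CPM in WT and 30.7 to 37.4 CPM in Blimp1-flox. Cd8b1 overlapped, with 12.3 to 16.8 CPM in WT and 10.4 to 17.9 CPM in Blimp1-flox. Cd8a and Ncr1 were at most 0.351 and 0.112 CPM in WT, and no higher in Blimp1-flox. The sum of 9 erythroid and platelet markers was 13.6 to 29.3 CPM in WT and 5.18 to 14.0 CPM in Blimp1-flox (exact permutation p = 0.0857, adjusted p = 0.228). The 4 haemoglobin genes of the last list were at 0 in every library. With the B cell markers as a covariate, which shared 65.4% of their variance with genotype, the members' median was 0.16, with 71 positive. The sum of 15 exocrine pancreas markers, with Amy2a5 at 0 in all libraries, was 34.1 to 72.8 CPM in WT, against 52.2 to 107.9 CPM in Blimp1-flox. Libraries were split at the widest gap in this sum. The low libraries (WT 1, 3 and 4 and Blimp1-flox 4) gave a median difference of 0.19. The high libraries (WT 2 and Blimp1-flox 1, 2 and 3) gave one of 0.35. Each part had 74 of 77 members positive and 1 library in 1 group. WT 2, the only WT library of the high part, was the lowest of the 8 libraries for 58 members. Those members had to be positive there, so the sign counts are not separate checks. Cela1 alone held 27.5 to 34.3 CPM in WT and 39.7 to 67.3 CPM in Blimp1-flox. It and Prss2 were the 2 pancreas markers higher in every Blimp1-flox than in every WT library. The other pancreas markers mostly did not follow the split. All of them but Cpb1 and Amy2a5 were lower in Blimp1-flox 1, a high library, than in WT 4, a low one. Cela2a was at 2.54 CPM in WT 4 and 0.791 CPM in Blimp1-flox 1. Cpb1 was at 0.895 CPM in WT 4 and 1.03 CPM in Blimp1-flox 1. The split is therefore not a measure of pancreas RNA as a whole.

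Complex I, the NADH dehydrogenase, had a positive log2 fold change for all 35 members, with a median of 0.23 and a range from 0.0664 to 0.40. Their summed level was 3323, 2715, 3078 and 2965 CPM in WT 1 to 4 and 4120.3, 3102, 3320.4 and 3605 CPM in Blimp1-flox 1 to 4. WT 1 lay above Blimp1-flox 2 and 3. The Blimp1-flox mean was 1.17 times the WT mean, and 1.11 times without Blimp1-flox 1, with no test made on the sum.

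Ndufa12, an accessory subunit on chromosome 10 from 94199009 to 94220948 (mm10), held 55.1, 42.7, 47.4 and 49.6 CPM in WT, against 73.5, 55.3, 59.3 and 67.4 CPM in Blimp1-flox. The groups did not overlap, though WT 1 at 55.1 CPM and Blimp1-flox 2 at 55.3 CPM were close. Its log2 fold change was 0.39 ± 0.12 (SE; edgeR adjusted p = 0.162), the lowest adjusted p among the members. Of the 50-base stretches in its GENCODE M21 transcripts, 26.2% also occurred in a pseudogene, so its counts are uncertain. The median share over the 77 members was 1.88%. Ndufa9, an accessory subunit next to the ubiquinone site, held 113, 91.8, 105 and 95.5 CPM in WT, against 131, 118, 114 and 135 CPM in Blimp1-flox, also without overlap (edgeR adjusted p = 0.184).

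Ndufa1, a small membrane subunit, had the highest log2 fold change of complex I, 0.40 ± 0.15 (SE; edgeR adjusted p = 0.227). It held 92.1 to 130 CPM in WT, against 114 to 181 CPM in Blimp1-flox, with overlap. Ndufv1, which binds the flavin that accepts electrons from NADH, had a log2 fold change of 0.27 ± 0.12 (SE), or 0.16 without Blimp1-flox 1. Ndufs1, the largest iron-sulphur subunit, had one of 0.0988 ± 0.0908 (SE), or 0.15 without Blimp1-flox 1, and for it Blimp1-flox 1, at 143 CPM, was the second lowest of the 8 libraries. Exons of Ndufs1 share 248 bases with Ino80dos, so its counts are uncertain. The lowest log2 fold changes were those of Ndufa5 (0.0664) and Ndufa10 (0.0734), which without WT 2 were 0.00291 and 0.042. That of Ndufa5 was 0.00403 without Blimp1-flox 1. Ndufa4, named as a complex I gene but now known as a subunit of complex IV, had a log2 fold change of 0.17, or 0.102 without Blimp1-flox 1 and 0.0861 without WT 2.

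Complex II, the succinate dehydrogenase that also belongs to the citric acid cycle, had log2 fold changes from 0.20 to 0.31, with a median of 0.24. Its summed level was 1007, 883, 962 and 863 CPM in WT, against 1209, 1044, 1045 and 1090.1 CPM in Blimp1-flox. This sum did not overlap between the groups, unlike those of the other 4 complexes, though each of its 4 genes overlapped by itself. No test was made on the sum. The ratio of the means was 1.18, and 1.14 without Blimp1-flox 1.

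Sdha, the flavoprotein that oxidises succinate, held 576, 522, 551 and 497 CPM in WT, against 694, 639, 569 and 622 CPM in Blimp1-flox. WT 1 lay just above Blimp1-flox 3. Its log2 fold change was 0.23 ± 0.0909 (SE; edgeR adjusted p = 0.246). Sdhb, the iron-sulphur subunit, had a log2 fold change of 0.26 ± 0.10 (SE) and Sdhc, a membrane anchor, one of 0.31 ± 0.11 (SE). Sdhd, the other membrane anchor, had one of 0.20 ± 0.11 (SE; edgeR adjusted p = 0.379). None of the 4 passed.

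Complex III, the cytochrome c reductase, had 7 positive and 1 negative log2 fold change of 8, with a median of 0.24. Uqcr11, a small subunit encoded on chromosome 10 from 80402997 to 80406821 (mm10), had the highest value of all members, 0.50 ± 0.20 (SE; edgeR adjusted p = 0.256). It held 88.8, 68.4, 74.8 and 66.0 CPM in WT, against 155, 80.7, 79.3 and 107 CPM in Blimp1-flox. Most of that difference lay in Blimp1-flox 1 and 4, and WT 1 lay above Blimp1-flox 2 and 3. Without Blimp1-flox 1 the log2 fold change of Uqcr11 was 0.26. Uqcr10 had one of 0.33 ± 0.14 (SE), or 0.21 without Blimp1-flox 1, and the core protein gene Uqcrc1 one of 0.32 ± 0.12 (SE).

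Uqcrfs1, the Rieske iron-sulphur protein that passes electrons on, held 103, 82.9, 81.1 and 82.1 CPM in WT, against 115, 96.1, 97.9 and 102 CPM in Blimp1-flox. Apart from WT 1, every WT library lay below every Blimp1-flox library (log2 fold change 0.24 ± 0.11, SE; edgeR adjusted p = 0.29). Uqcrb, a ubiquinone-binding subunit, had a log2 fold change of -0.00799 ± 0.10 (SE). Its levels were 114 to 146 CPM in WT, against 120.1 to 142 CPM in Blimp1-flox, and its sign changed in 9 of 21 alternatives.

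The summed level of complex III was 973 to 1267 CPM in WT, against 1171 to 1566 CPM in Blimp1-flox, with Blimp1-flox 1 highest and WT 2 lowest. The ratio of the means was 1.2, and 1.12 without Blimp1-flox 1.

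Complex IV, the cytochrome c oxidase, had 12 positive and 1 negative log2 fold change of 13, with a median of 0.19. Only 1 member had an unadjusted p under 0.05. This was Cox4i1, the common form of the largest nuclear subunit, which held 169 to 224 CPM in WT, against 195 to 285 CPM in Blimp1-flox (log2 fold change 0.27 ± 0.12, SE; edgeR adjusted p = 0.308). Without Blimp1-flox 1 its value was 0.15. Cox7c held 58.5, 50.6, 54.3 and 60.1 CPM in WT, against 58.3, 46.5, 53.4 and 55.6 CPM in Blimp1-flox, so its ranges overlapped widely (log2 fold change -0.0656). Cox7a2l, a factor of supercomplex assembly, had a log2 fold change of 0.0357 ± 0.12 (SE). It changed sign in 6 of 21 alternatives. The summed level of complex IV was 1165 to 1530 CPM in WT, against 1340 to 1726 CPM in Blimp1-flox, a ratio of means of 1.12, the lowest of the 5 complexes, and of 1.07 without Blimp1-flox 1.

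Complex V, the ATP synthase, had the lowest median, 0.17, and the widest spread, with 15 positive and 2 negative log2 fold changes. The 15 positive values ran from 0.0869 (Atp5k) to 0.31 (Atp5f1), so the 2 negative genes made the spread the widest. Atp5f1, a subunit of the peripheral stalk, held 188 to 220.4 CPM in WT, against 222 to 298 CPM in Blimp1-flox without overlap (log2 fold change 0.31 ± 0.10, SE; edgeR adjusted p = 0.184). Exons of Atp5f1 share 205 bases with Wdr77, so its counts are uncertain. Atp5b, the catalytic beta subunit, held 1209, 970.4, 1124 and 924 CPM in WT, against 1325, 1158, 1258 and 1294 CPM in Blimp1-flox. Its WT 1 library lay above Blimp1-flox 2 (log2 fold change 0.25 ± 0.10, SE; edgeR adjusted p = 0.259). Atp5a1, the alpha subunit, had a log2 fold change of 0.24 ± 0.0993 (SE).

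The 2 negative genes of this group are not structural parts of the ATP synthase. Atp5sl, known today as Dmac2, encodes an assembly factor of the complex I membrane arm, and lies on chromosome 7 from 25619414 to 25625550 (mm10). It held 53.0, 51.0, 53.9 and 63.2 CPM in WT, against 44.7, 45.3, 39.8 and 45.4 CPM in Blimp1-flox. All Blimp1-flox libraries lay below all WT libraries (log2 fold change -0.34 ± 0.10, SE; edgeR adjusted p = 0.168). Atp5s, known today as Dmac2l or coupling factor B, held 15.2, 25.9, 21.8 and 27.0 CPM in WT, against 16.8, 14.1, 14.1 and 17.7 CPM in Blimp1-flox. WT 1 was as low as the Blimp1-flox libraries (log2 fold change -0.52 ± 0.18, SE; edgeR adjusted p = 0.2). Neither gene passed, and both stayed negative in all 21 alternatives, from -0.38 to -0.12 for Atp5sl and from -0.67 to -0.27 for Atp5s. Leaving out these genes and Cox7a2l gave 74 structural subunits, with a complex V median of 0.18. The summed level of complex V was 3317 to 4056 CPM in WT, against 3830.1 to 4565 CPM in Blimp1-flox, and the ratio of means was 1.16, or 1.13 without Blimp1-flox 1. Differences between complexes were not tested.

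**Figure D3:**
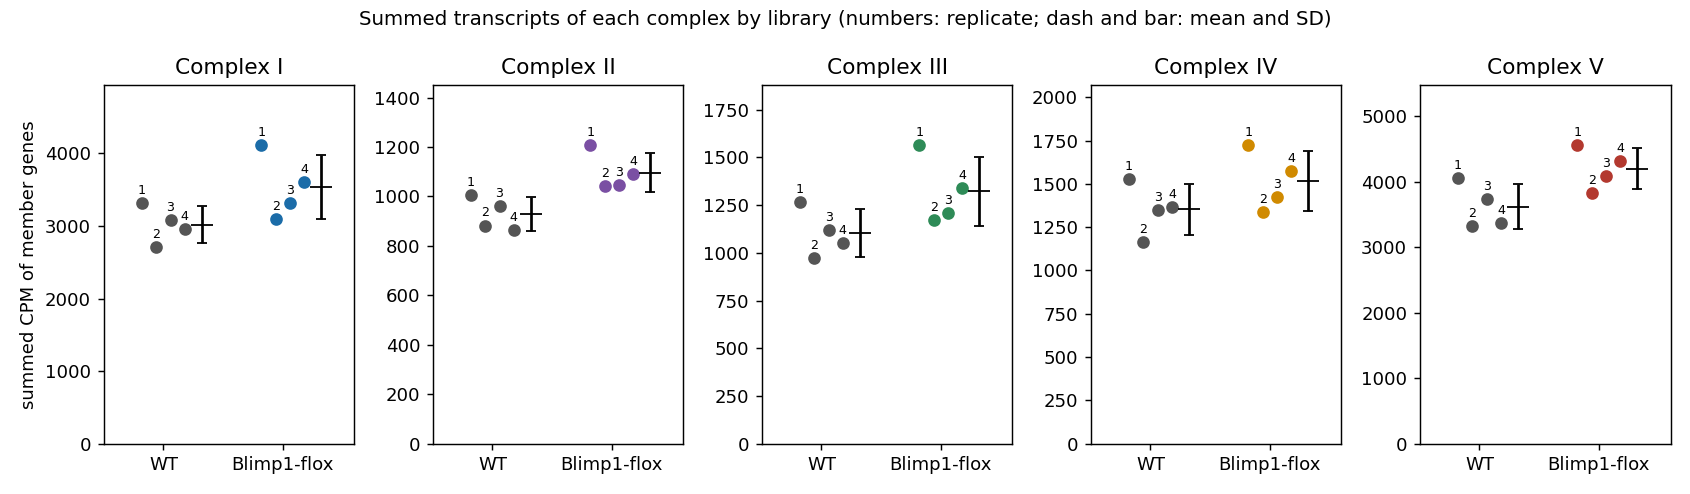
Summed CPM of the member genes of complexes I to V (1 panel each, y axis from 0) in the 4 WT and 4 Blimp1-flox libraries, with replicate numbers beside the points and the mean and SD to the right. Blimp1-flox 1 is the highest point in every panel. Complex II is the panel in which the groups do not overlap, with WT up to 1007 and Blimp1-flox from 1044 CPM. Each of its 4 genes overlapped by itself.

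Levels of different genes were compared per kilobase of exon. Atp5b was the highest member, with 562 ± 70.5 CPM per kilobase in WT (SD, n = 4), followed by Cox6b1 (339.6 ± 34.9) and Cox6a1 (339 ± 46.8), which did not differ beyond their spread. The median member level in WT was 94.2 CPM per kilobase for complex I, 138 for complex II, 181 for complex III, 130 for complex IV and 143 for complex V. The highest over all libraries were Ndufa3 for complex I (306 ± 29.4 in WT), Sdhb for complex II (196 ± 14.8) and Uqcrc1 for complex III (244 ± 36.5). The lowest in WT were Ndufa11 (25.8), Sdhc (58.8), Uqcrfs1 (66.4), Cox6b2 (1.73) and Atp5s (15.1) in complexes I to V.

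Some members share sequence with other genes. Of the 50-base stretches in GENCODE M21 transcripts of Atp5l, a membrane subunit of complex V, 84.8% also occurred in transcripts of other genes, 12 of them pseudogenes. For Ndufb4 the share was 37% and for Atp5g2 38.3%, against a median of 1.88% over the 77 members, 33 of which shared no stretch. Their levels per kilobase over all libraries were 27.8 for Atp5l, 29.4 for Ndufb4 and 32.7 for Atp5g2, among the 8 lowest. Atp5o (45.6%) and Uqcrb (43.4%) shared more than Ndufb4 did and were not low. How multi-mapping reads were counted is not given in the sources used here. Ndufs5, a complex I subunit, had 2 counts in all. Of its 509 exon bases, 484 lie in exons that the table also gives to BC002163, and Ndufs5 fell short of the count minimum.

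Subunits with tissue-specific forms were represented by the general form. Cox4i1 had 39810 counts over the libraries and Cox4i2, the lung form induced by low oxygen, had 7, with 5 libraries at 0. Cox6a1 had 36214 counts and Cox6a2, the heart and muscle form, had 3, all in Blimp1-flox 1. Cox8a had 34749 and Cox8b, another muscle form, 5. Ndufa4l2 and Cox8c were at 0 in every library, which allows up to 3 counts over all libraries by counting error alone. The lowest members just inside the count minimum were Cox7a1 with 150 counts and Cox6b2 with 231, and the highest outside it was Cox4i2.

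Per length, Cox7a2 exceeded the muscle form Cox7a1 by 37.1 to 95.3 times within libraries, and Cox6b1 exceeded the testis form Cox6b2 by 115 to 476 times. Cox7a1 and Cox6b2 had the highest log2 fold changes of complex IV, 0.47 ± 0.42 and 0.43 ± 0.51 (SE), which are within their error (edgeR adjusted p = 0.61 and 0.714). Without Blimp1-flox 1 they were 0.27 and 0.11. The counts per library were 12 to 24 for Cox7a1 and 10 to 47 for Cox6b2.

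Atp5g1, Atp5g2 and Atp5g3 encode the same mature subunit c of the ATP synthase ring with different import sequences. Atp5g3 gave 67.6% to 69.9% of their summed level per length in WT and 68.9% to 70.1% in Blimp1-flox. Atp5g1 gave 23.2% to 24.8% and 23.7% to 25.7%, and Atp5g2 6.81% to 7.62% and 5.38% to 6.98%. The division among the 3 genes was alike in the libraries, with the lowest share of Atp5g2 in Blimp1-flox 1. The log2 fold changes were 0.30 for Atp5g1, 0.0872 for Atp5g2 and 0.29 for Atp5g3, and none passed (edgeR adjusted p = 0.272, 0.759 and 0.232). That of Atp5g1 was 0.18 without Blimp1-flox 1, and that of Atp5g2 was 0.0278 without WT 2.

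**Figure D4:**
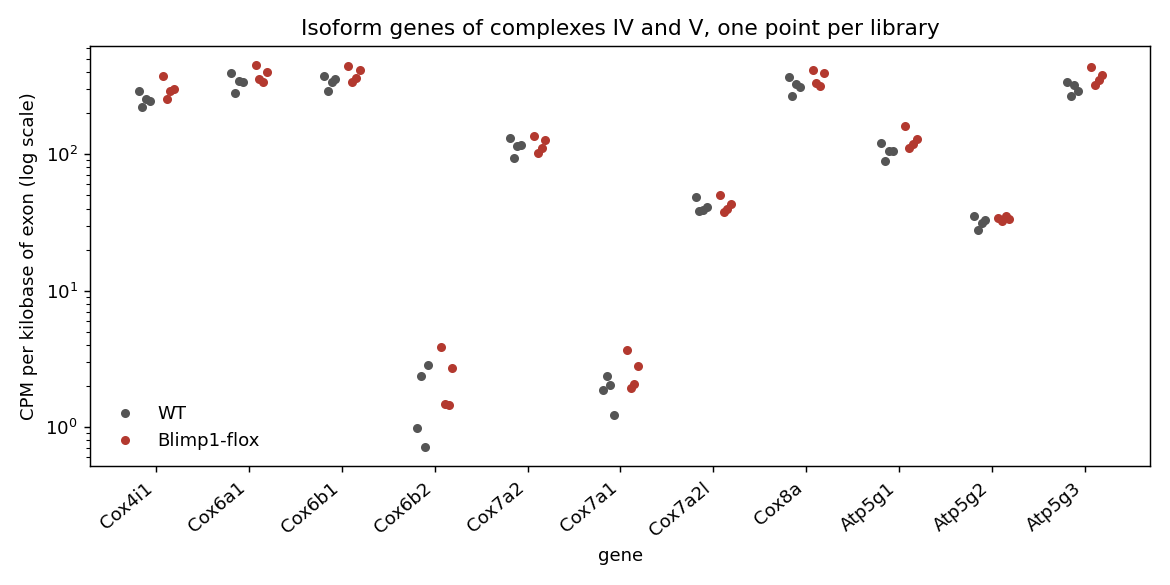
CPM per kilobase of exon (y axis, log scale) of isoform genes of complexes IV and V (x axis), 1 point per library, grey for WT and red for Blimp1-flox. Cox6b2 and Cox7a1 sit far below their general forms, at means of 1.73 and 1.87 CPM per kilobase in WT against 339.6 for Cox6b1 and 114 for Cox7a2.

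Subunit genes are short, and fold changes varied with gene length. The median summed exon length was 724 bases for members and 2826 for all tested genes. Over all 12363 genes the slope of the log2 fold change was -0.0516 for each doubling of length. Genes were split into 5 equal classes by length. In the shortest class (44 to 1567 bases), which holds 63 of the 77 members, the median log2 fold change of all genes was 0.094, with 65.5% positive. In the longest class (4709 to 104320 bases) it was -0.10, with 31.9% positive. The members of the shortest class had a median of 0.19, the 9 members of the next class one of 0.27 and the 5 of the middle class one of 0.23, where all genes of the latter classes had 0.0382 and 0.00242.

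The trend with length differed between libraries. Its slope (log2 deviation per doubling of length) was -0.101 in Blimp1-flox 1 and 0.0807 in WT 2, the libraries at either end of the member levels. It was -0.0226 to 0.0381 in the other WT libraries and -0.0277 to 0.0501 in the other Blimp1-flox libraries, and the difference between groups did not pass (exact two-sided permutation p = 0.257, adjusted p = 0.294 over 8 measures). After a trend on length was removed in each library, the members' median log2 fold change was 0.11, with 64 positive and 13 negative. The complex medians were then 0.12 for complex I, 0.20 for complex II, 0.17 for complex III, 0.0701 for complex IV and 0.0549 for complex V. The member deviation became 0.1 in Blimp1-flox 1 and -0.093 in WT 2, and WT 4 became the lowest library at -0.136. With the trend removed, the members of the shortest class had a median of 0.0723, those of the next class 0.21 and those of the middle class 0.23. Among the 77 members alone the slope was -0.0178 per doubling of length, with a Pearson correlation of -0.0986 and a Spearman correlation of 0.102. Without Atp5s and Atp5sl these were 0.0129, 0.0972 and 0.169. The correlations are across genes, which share their libraries and are not independent.

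**Figure D5:**
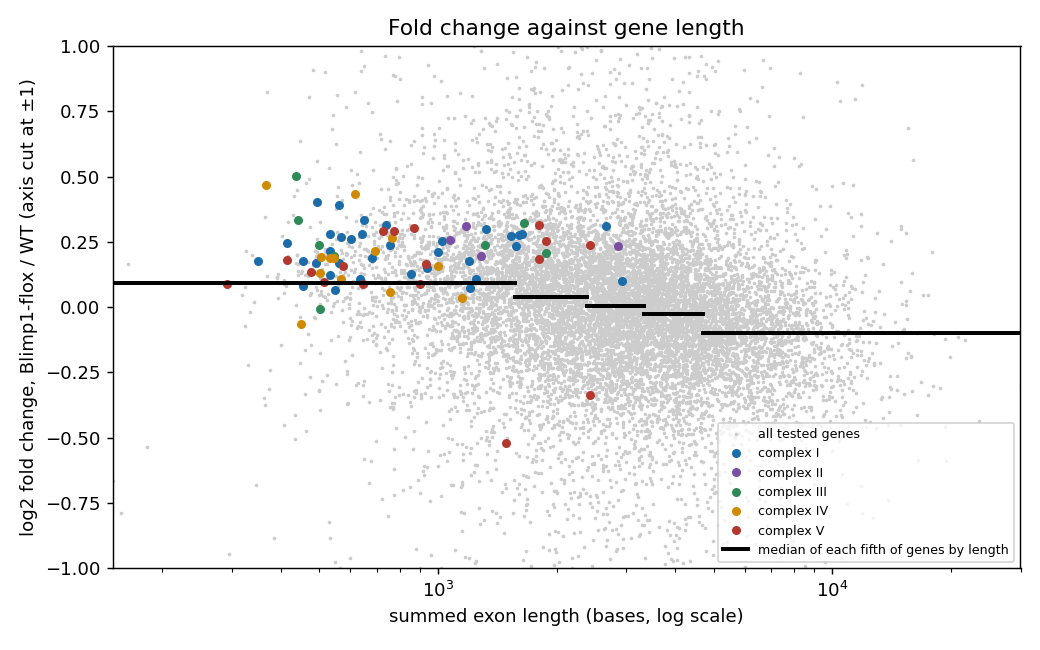
Log2 fold change (y axis, cut at ±1) against summed exon length in bases (x axis, log scale) for all tested genes (grey) and 76 members by complex (coloured), with the median of each of 5 length classes as black lines. The lines step down from 0.094 to -0.10, and most members lie above the line of their own class.

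Other genes of the pathway were taken from lists of related functions. None of 44 assembly factors was called, with 32 positive and a median log2 fold change of 0.0826, and the range ran from -0.26 for Ndufaf5 to 0.37 for Sdhaf3. None of 16 electron carrier and quinone enzyme genes was called, with 13 positive and a median of 0.0737. Its ends were Sqrdl, the sulphide quinone reductase (-0.33), and Coq7, of ubiquinone synthesis (0.40). None of 16 citric acid cycle genes was called, with 13 positive and a median of 0.10. Idh3a and Idh3b, 2 subunits of the same isocitrate dehydrogenase, had the highest and the lowest value, 0.29 and -0.30. Idh3b was at 238 CPM in WT 4 and at 148 to 189 CPM in all other libraries, and without WT 4 its value was -0.16. Idh3a was called by DESeq2 (adjusted p = 0.0463) and limma-voom (adjusted p = 0.0329).

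Of 10 carriers and pores of the mitochondrial membranes, 1 rose, 9 were positive, and the median was 0.26. Slc25a4, an exchanger of ADP and ATP that supplies complex V, held 118, 116, 116 and 109 CPM in WT, against 186, 137, 163 and 171 CPM in Blimp1-flox. The groups did not overlap, and it rose 1.43-fold (edgeR adjusted p = 0.0419). Its log2 fold change was 0.52 ± 0.10 (SE). Leaving out 1 library ended the call for WT 2 (edgeR adjusted p = 0.12), WT 3 (0.0987), WT 4 (0.0681) and Blimp1-flox 1 (0.12), 3 (0.059) and 4 (0.182). A replicate block also ended it (0.0688), as did the B cell covariate (0.981) and the pancreas split as a term (0.112).

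Of 14 tested regulators of mitochondrial genes, none was called, 6 were positive and 8 negative, and the median was -0.0142. Nrf1 and Gabpa, which encode the factors of the promoter motifs above, had log2 fold changes of 0.0665 and -0.12, and Tfam, of mitochondrial DNA transcription, one of -0.0219. Those at the ends were Yy1 (0.19) and Myc (-0.44), neither of which passed (edgeR adjusted p = 0.559 and 0.409). Atpif1, the inhibitor of the ATP synthase, held 70.9 to 81.0 CPM in WT, against 76.8 to 105 CPM in Blimp1-flox (log2 fold change 0.26, edgeR adjusted p = 0.26). Cyc1 and Ndufab1, structural subunits whose symbols fall outside the rule, had log2 fold changes of 0.21 and 0.0641.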

How the data were processed

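The 8 libraries are from sorted TFR cells, 4 per genotype. The submitters' processing notes name STAR 2.5.2b, the mm10 build, featureCounts and Subread 1.5.1. The authors deposited whole-number counts for each gene, not normalized. The deposited exon length per gene, a value of another kind, was used as given. Annotation, strand setting and treatment of multi-mapping reads are not given in the sources used here.

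Genes were kept with filterByExpr, scaled by TMM (factors 0.976 to 1.02) and tested with edgeR 4.0.16's quasi-likelihood test (R 4.3.3, robust, genotype alone), with Benjamini-Hochberg adjustment over 12363 genes and calls at an adjusted p under 0.05. Standard errors come from the F statistic. Alternatives used DESeq2 1.42.0, limma 3.58.1 (voom with quality weights), other scalings, filters and covariates, removal of a lowess trend on length, and each library left out. No 2 libraries of a group agreed within sampling noise (chi-square per gene at least 16.7). The labels state no pairing by replicate number, and deviations of same-numbered libraries correlated from -0.108 to 0.153. So few libraries cannot exclude a pairing.

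Members and lists were chosen with earlier results of these data known. Genes named were, in each complex, the 2 highest and 2 lowest by log2 fold change and the highest per kilobase, fixed isoform sets and catalytic cores, the called or else the outermost genes of each related list, and the genes next to the count minimum. Ndufa9 and Atp5f1 (no overlap), Cox7c, Ndufs5, Atp5l, Ndufb4, Atp5o, Ndufa11, Cox8c, Il2ra, Foxp3, Sdc1, Cd68, members that turned, Nrf1, Gabpa, Tfam and Ndufa7 and the other promoter examples were named after their values were seen. The result of 1 member is not reported here by itself; it stays in the counts and medians.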

Additional observations from a re-analysis of the deposited data

Results flagged for a closer look

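In 4 of the 124 groups checked, 1 library lay far from the other 3 of its group by Dixon's criterion, which chance meets in about 1 of 20 groups. Uqcrfs1 was at 103 CPM in WT 1 and at 81.1 to 82.9 CPM in the other WT libraries. Atp5sl was at 39.8 CPM in Blimp1-flox 3 and at 44.7 to 45.4 CPM in the other Blimp1-flox libraries. Yy1 was at 40.3 CPM in Blimp1-flox 1 and at 27.2 to 28.3 CPM in the other Blimp1-flox libraries. Myc was at 179 CPM in WT 4 and at 109 to 114 CPM in the other WT libraries.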

How the results depend on the processing

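The members' median log2 fold change of 0.21 stayed positive in all 21 alternatives, from 0.0657 to 0.28, and from 0.12 to 0.26 with 1 library left out. No complex median changed sign. The signs of 60 members held in all alternatives, and 17 changed in at least 1. No member was called in any alternative but limma-voom (2), beside 31 at an unadjusted p under 0.05. The count over all genes, 62, was 453 by DESeq2, 494 by limma-voom, 182 at an adjusted p under 0.1, 1998 at an unadjusted p under 0.05, 157 without WT 4 and Blimp1-flox 3, 7 without WT 2 and Blimp1-flox 1 (added after seeing the data), 0 with the B cell covariate, 33 with the pancreas split, and from 20 (without Blimp1-flox 1) to 127 (without WT 1) with 1 library left out. The labels state no pairing by replicate number, and so few libraries cannot exclude one. Same-numbered libraries correlated from -0.108 to 0.153, and 3 of 8 correlated best with their own number. With a replicate block 52 genes and 0 members were called, with a member median of 0.205. At an unadjusted edgeR p under 0.05, 40 members were then higher and 2 lower, against 29 and 2 without the block. Among the genes followed through the alternatives, Slc25a4 is the one whose call the block ended. Il2ra and Sdc1 were not followed in this way. Prdm1 lost its call with no filter (edgeR adjusted p = 0.0502), the B cell covariate (0.887), without Blimp1-flox 1 (0.103) and without both Blimp1-flox 1 and WT 2 (0.0885).

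Log2 fold changes turned as follows, and the cause was not tested. With the length trend removed, 9 members turned: Ndufa5 was -0.0531, Ndufb4 -0.0404, Ndufb10 -0.00735, Cox5b -0.00219, Cox7a2l -0.0443, Cox7a2 -0.0462, Atp5g2 -0.0137, Atp5j -0.00729 and Atp5l -0.0214. The related gene Ndufab1 was -0.0378. Without WT 2 and Blimp1-flox 1, 10 members turned: Ndufa5 was -0.058, Ndufa3 -0.0332, Ndufa13 -0.0573, Ndufb10 -0.0241, Ndufs3 -0.0173, Cox5b -0.0077, Cox7a2l -0.0831, Cox7a2 -0.0928, Atp5j -0.00615 and Atp5k -0.0237. Yy1 was -0.0442. With the B cell covariate, Uqcrb was 0.0661, Cox7a1 -0.131, Cox7a2l -0.0579, Atp5d -0.048, Ndufaf5 0.218, Idh3b 0.0753 and Myc 0.0138. With the pancreas split, Uqcrb was 0.105 and Cox7c 0.00189. Uqcrb was 0.000323 under upper-quartile scaling, 0.0663 by limma-voom and 0.0559 without WT 4 and Blimp1-flox 3. With 1 library left out, Uqcrb ran from -0.0768 to 0.036, Cox7a2l from -0.0467 to 0.118 and Cox7a2 from -0.0239 to 0.129. Depth limits Cox7a1 and Cox6b2, with 150 and 231 counts over 8 libraries.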
